A study of Mus musculus with 2 samples.

Results

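Cytochrome P450 genes were compared between small intestinal epithelium placed as a graft on mouse colon and untreated colonic epithelium. Members were taken by symbol, as genes whose name starts with Cyp followed by a digit, leaving out the sterol demethylase gene Cyp51. Of 17305 genes measured by a probe set annotated to exactly 1 gene, 66 were P450 genes, in 30 subfamilies. The graft came from small intestinal cells of EGFP-transgenic mice of C57BL6 background that had been grown as organoids, which are epithelial cultures containing stem cells, for 7 days. The organoids were instilled into the colonic lumen of C57BL6 recipients, and the graft was cut out by laser microdissection 4 weeks after transplantation. The control was colonic epithelium of a C57BL6 mouse, microdissected in the same way. Epithelium from serial sections was combined for each specimen. Each group is 1 array, for which, per the design text, the specimen with the highest RNA integrity had been picked. The sources used here give no age or sex of the mice. No ungrafted small intestine was analysed here, so origin of the tissue and grafting cannot be told apart.

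Cytochrome P450 enzymes are heme proteins that insert an oxygen atom into fat-soluble substrates, with electrons handed on by a reductase. Families 1 to 3 are known for the oxidation of drugs and other foreign compounds, family 4 for fatty acids and eicosanoids, and the higher-numbered families for steroids, bile acids, vitamin D and retinoic acid. In the gut wall they are known as a first barrier to swallowed compounds, and several are made mostly by mature absorptive cells.

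The values are log2 levels, and every difference is graft minus colon on that scale. With 1 array per group no difference has a replicate check, no test was possible, and the number of arrays limits the precision. The error that can be measured is the disagreement of probe sets of the same gene. Between the differences of a gene's 2 brightest probe sets, the SD was 0.48 on the log2 scale. This was taken over 586 genes where both probe sets reached the median level defined below, and it was not measured below that level. Both probe sets read the same 2 RNA samples, so variation between animals or amplifications is not in it. Of the 66 P450 genes, 0 had a second probe set of their own. A gene was said to reach the median level if the higher of its values was at least 5.48, the median of all gene values. Values below the 20th percentile of an array, 4.75 for the graft and 4.74 for the colon, cannot be separated from background, so differences against them have no determined size. Markers of the tissues went with the 2 labels. Their lists were chosen with earlier results of these data known, so they are no independent check. In the graft, 10 of 10 small intestinal enterocyte markers were at least 2-fold higher, with Fabp1 at 10.38 against 4.71, and 9 of 10 colonic absorptive cell markers were at least 2-fold lower, with Car1 at 4.51 against 11.74. Of 12 general epithelial markers, 0 differed by 2-fold.

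P450 genes that differed between the samples were mostly lower in the graft. Of the 66, 9 (13.6%) were lower by 2-fold or more and 1 (1.52%) was higher by as much. Among all 17305 genes, 3.09% were lower and 1.93% were higher by that measure. At least 4-fold lower were 4 P450 genes (6.06%), against 0.745% of all genes, and 0 were at least 4-fold higher, against 0.595%. These 4 genes belong to the Cyp2c and Cyp2d subfamilies of close relatives, so they may not be separate cases. The 9 lower genes were Cyp2c55, Cyp2c68, Cyp2d10, Cyp2d12, Cyp2d22, Cyp2d34, Cyp2f2, Cyp4f13 and Cyp27a1, and the higher gene was Cyp2c66. The difference was uneven over the families: the Cyp2c and Cyp2d subfamilies, with 20 measured genes, held 6 of the 9 lower genes and the higher one, and the other 46 genes held 3. Of the 20, 11 reached the median level, as did 12 of the 46, and all genes past 2-fold were among these. Passing that level depends on the higher of the 2 values, so genes far apart tend to pass it. Over all genes, 533 of the 534 lower genes and 333 of the 334 higher ones passed it too. The part of detection in the contrast was not tested.

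Most P450 genes lay at the low end on both arrays. Of the 66, 23 reached the median level and 43 did not. Among the 43, differences ran from -0.96 to 0.41, and 22 P450 genes lay below the 20th percentile on both arrays. For 7 P450 genes the 2 arrays gave exactly the same value, which is 10.6% of them, against 12.6% of all genes. The 23 genes include 10 that reached the level through their colon value alone and 3 through their graft value alone, so their differences are in part set by that choice. Their median difference was -0.60, beside -0.05 for all 9392 genes that reached the level, of which 5.68% were at least 2-fold lower and 3.55% higher. Over all 66 the median was -0.02, beside 0 for all genes.

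**Figure D1:**
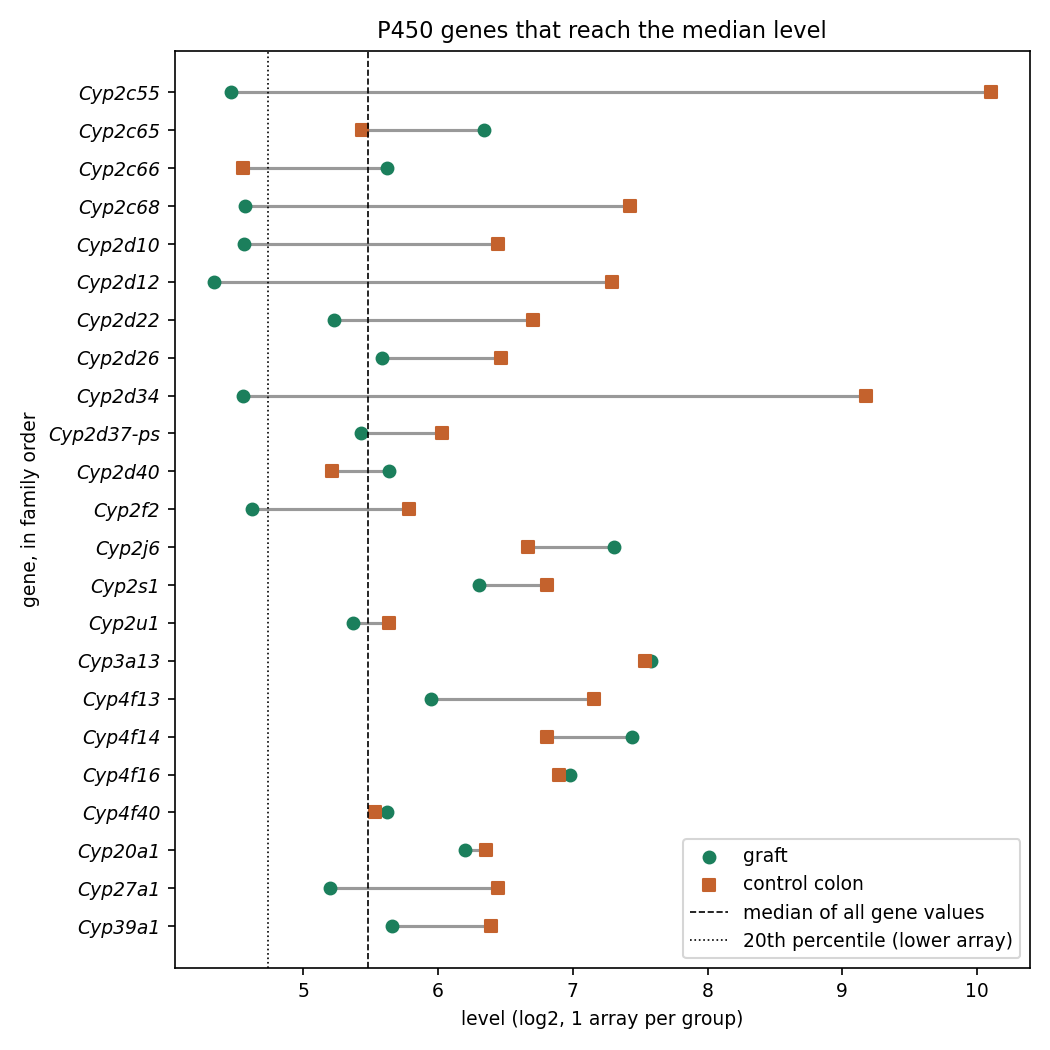
Level (log2) of the 23 P450 genes that reach the median level, with the graft as circles and the control colon as squares, 1 array each; the dashed line is the median of all gene values (5.48) and the dotted line the lower of the arrays' 20th percentiles (4.74). Cyp2c55 and Cyp2d34 span the widest gaps, with graft values left of the dotted line, and Cyp3a13 and Cyp4f16 have almost equal values.

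**Figure D2:**
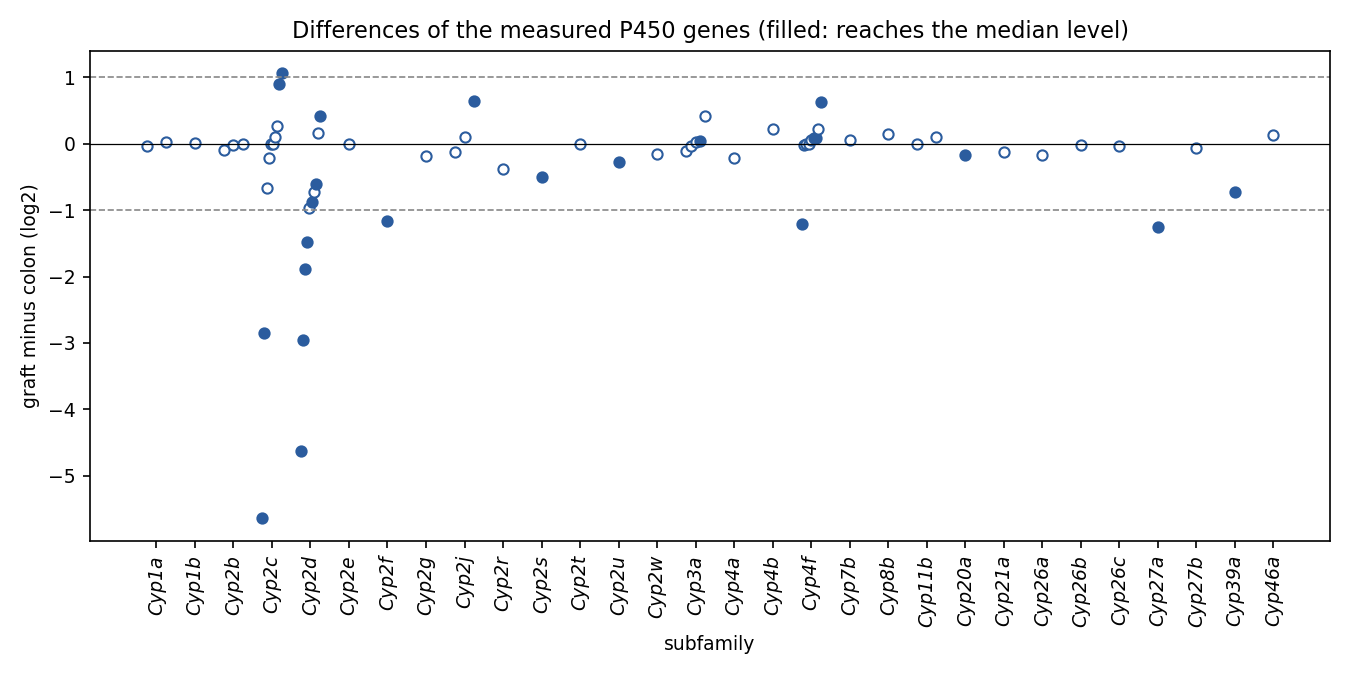
Difference between graft and colon (log2) of each of the 66 P450 genes, by subfamily, with filled circles for genes that reach the median level, open circles for the others and dashed lines at 2-fold. The points beyond 4-fold lower belong to Cyp2c and Cyp2d, and the Cyp1, Cyp2b, Cyp3a and Cyp26 genes lie close to 0.

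The aryl hydrocarbon receptor targets of family 1, which oxidise planar aromatic compounds, were at the low end in both samples. Cyp1a1, the classic target of that receptor, was at 4.56 in the graft against 4.53 in the colon, Cyp1a2 at 4.36 and 4.39, and Cyp1b1 at 4.64 and 4.63. All these values lay below the arrays' 20th percentiles, so no level of either sample can be stated. The receptor gene itself, Ahr, was at 6.55 in the graft against 6.12 in the colon, a difference of 0.42, and its repressor gene Ahrr was at 4.59 on both arrays.

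Subfamily Cyp2c, whose enzymes oxidise drugs and make epoxy and hydroxy fatty acids from arachidonic and linoleic acid, held differences in both directions. In the graft, 2 of its 10 measured genes were lower by 2-fold or more and 1 was higher, with a median of -0.0021. Over all genes, 3.09% were lower and 1.93% higher by that measure. Cyp2c55, an arachidonic and linoleic acid hydroxylase of the colon, was at 4.46 in the graft against 10.10 in the colon, a difference of -5.64. The graft value lay below 97.9% of that array's probe sets and the colon value above 97.0% of its own. Cyp2c68 was at 4.57 in the graft against 7.42 in the colon, a difference of -2.86. Cyp2c66 went the other way, at 5.62 in the graft against 4.55 in the colon, and Cyp2c65 was at 6.34 and 5.44. These differences were 1.07 and 0.90, on either side of 2-fold, and that of Cyp2c66 was 0.88 once values below the 20th percentiles were raised to them. Both are known from the intestine as relatives of Cyp2c55. The remaining 6 genes did not reach the median level on either array. Among them Cyp2c67 was at 4.44 in the graft against 5.11 in the colon, and the hepatic genes Cyp2c29 and Cyp2c70 had differences of 0.10 and 0.

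The Cyp2c genes with opposite differences are neighbours on chromosome 19. In RefSeq's gene order (assembly GRCm38.p6), an unbroken run of 18 Cyp2c genes and pseudogenes reads Cyp2c55, Cyp2c65 and Cyp2c66 near 1 end and Cyp2c67 and Cyp2c68 side by side further on. Of the 18, 9 were measured. The bases upstream of the annotated start are shown for the 4 Cyp2c genes with the largest differences, 2 of each sign, so that promoters of neighbouring genes with opposite signs can be compared. The sequences are the 250 bases before the start from RefSeq (GRCm38.p6), written 5′ to 3′ along the gene, with capitals marking matches to the motifs searched.
Cyp2c55 (chr19:39006769-39007018, plus strand): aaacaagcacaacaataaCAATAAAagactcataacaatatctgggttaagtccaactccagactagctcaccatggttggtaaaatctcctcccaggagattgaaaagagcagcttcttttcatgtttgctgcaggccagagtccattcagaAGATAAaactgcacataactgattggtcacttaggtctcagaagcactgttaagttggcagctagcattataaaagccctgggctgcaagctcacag
Cyp2c65 (chr19:39060756-39061005, plus strand): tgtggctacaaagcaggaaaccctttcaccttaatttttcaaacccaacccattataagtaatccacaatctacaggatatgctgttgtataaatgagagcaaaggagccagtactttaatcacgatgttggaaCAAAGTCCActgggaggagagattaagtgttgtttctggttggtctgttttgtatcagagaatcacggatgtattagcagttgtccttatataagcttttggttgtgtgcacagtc
Cyp2c66 (chr19:39113648-39113897, plus strand): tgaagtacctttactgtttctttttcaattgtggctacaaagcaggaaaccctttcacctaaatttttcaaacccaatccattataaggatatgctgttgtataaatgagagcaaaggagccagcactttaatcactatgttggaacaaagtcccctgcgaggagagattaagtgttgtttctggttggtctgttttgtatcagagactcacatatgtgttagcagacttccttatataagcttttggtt
Cyp2c68 (chr19:39741102-39741351, minus strand): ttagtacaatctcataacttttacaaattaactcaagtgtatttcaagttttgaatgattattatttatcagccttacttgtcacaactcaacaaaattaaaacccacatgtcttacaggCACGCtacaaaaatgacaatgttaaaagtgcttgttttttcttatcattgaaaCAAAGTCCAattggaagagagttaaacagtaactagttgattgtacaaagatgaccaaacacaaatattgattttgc

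The windows of Cyp2c65 and Cyp2c66, both higher in the graft, were 74.6% identical in a global alignment with gap columns counted. Their shared stretch stands at different distances from the annotated start, and the unmatched ends lower that value. The Cyp2c55 window was 54.9% and 51.9% identical to them and 49.2% identical to that of Cyp2c68. No unrelated windows were aligned, so a baseline identity is lacking, and a link to the differences was not tested. In the Cyp2c65 and Cyp2c68 windows stands CAAAGTCCA, a form of the element bound by the nuclear receptor HNF4, at 116 and 77 bases before the start, counted from its first base. Cyp2c55 and Cyp2c66 lack an exact match, and their nearest stretches, CAGAGTCCA and CAAAGTCCC, each have 1 mismatch. The element was found in 6 of the 51 P450 genes that have an entry in the promoter table (11.8%), and in 0.384% of all 32851 entries with windows of that length. The first share counts genes and the second counts entries. The 6 genes were Cyp2c65, Cyp2c67, Cyp2c68, Cyp2c70, Cyp3a11 and Cyp8b1. The Cyp2c genes among them belong to 1 run of related genes, so they are not separate cases. Differences ran from -2.86 for Cyp2c68 to 0.90 for Cyp2c65, the only ones of the 6 that reached the median level, so these genes with the match went in both directions. The Cyp2c55 window held AGATAA, an element read by the zinc finger factors that include Gata4, as did 9.99% of all entries. It also held, on the reverse strand, the element of the CDX homeobox factors, TTTATNG, which was matched in 9.81% of all entries. The core of the aryl hydrocarbon receptor element, GCGTG, was matched in 11 of 51 P450 genes and 28.2% of all entries, with Cyp2c68 and Cyp1a1 among the 11. Among the 51 genes the zinc finger factor element was matched in 11 and the CDX element in 8. The exact HNF1 palindrome and the direct repeat of the nuclear receptor half-site with 1 spacer base were matched in 0 of 51, and in 0.00913% and 0.0335% of all entries. All motifs were searched on both strands, and none of the matches printed in capitals overlap. A match describes letters and is not evidence of binding.

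Subfamily Cyp2d, which includes the counterparts of the human drug-oxidising enzyme CYP2D6, held 4 of the 9 lower genes. In the graft, 4 of its 10 measured genes were lower by 2-fold or more, 0 were higher by as much and 8 had a difference below 0, with a median of -0.92. Of all 17305 genes, 3.09% were lower and 1.93% higher by that measure, and 7597 had a difference below 0. Cyp2d34 was at 4.55 in the graft against 9.18 in the colon, a difference of -4.63. Cyp2d12 was at 4.33 in the graft against 7.29 in the colon, and Cyp2d10 at 4.56 and 6.44. In all 3 the graft value lay below that array's 20th percentile. Cyp2d22, often regarded as the mouse counterpart of CYP2D6, was at 5.23 in the graft against 6.71 in the colon, a 2.78-fold difference. Cyp2d26 was at 5.58 and 6.47, just inside 2-fold with a difference of -0.88, and Cyp2d13, annotated as a transcribed pseudogene, at 4.37 and 5.33. The pseudogene Cyp2d37-ps had a difference of -0.60 and Cyp2d9, a testosterone hydroxylase, of -0.72. Cyp2d40, at 5.63 and 5.21, and Cyp2d11, at 4.85 and 4.68, were higher in the graft by less than the SD between probe sets. The colon value of Cyp2d11 was in the background range.

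The 10 Cyp2d genes lie on chromosome 15 in 2 runs, with other genes between them. The run from Cyp2d22 to Cyp2d9 held 4 measured genes with a median of -1.10, and the run from Cyp2d12 to Cyp2d26 held 6 with a median of -0.92. Within the first run Cyp2d11, whose difference was smaller than the SD between probe sets, stands between Cyp2d22 and Cyp2d10, both lower in the graft. The upstream windows of Cyp2d10 and Cyp2d11 are 76.7% identical, with gap columns counted. Genes of Cyp2c and Cyp2d have close relatives whose RNA may reach each other's probes, so the value of a single member is uncertain as the value of that gene alone. Of 7 probe sets annotated to several genes with a P450 among them, 1 covers 4 Cyp2c genes and was at 4.72 in the graft against 7.39 in the colon. The other 6 had differences from -0.05 to 0.12. On these 7 probe sets stand 10 P450 genes that have no probe set of their own, and no value is given for any of them.

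**Figure D3:**
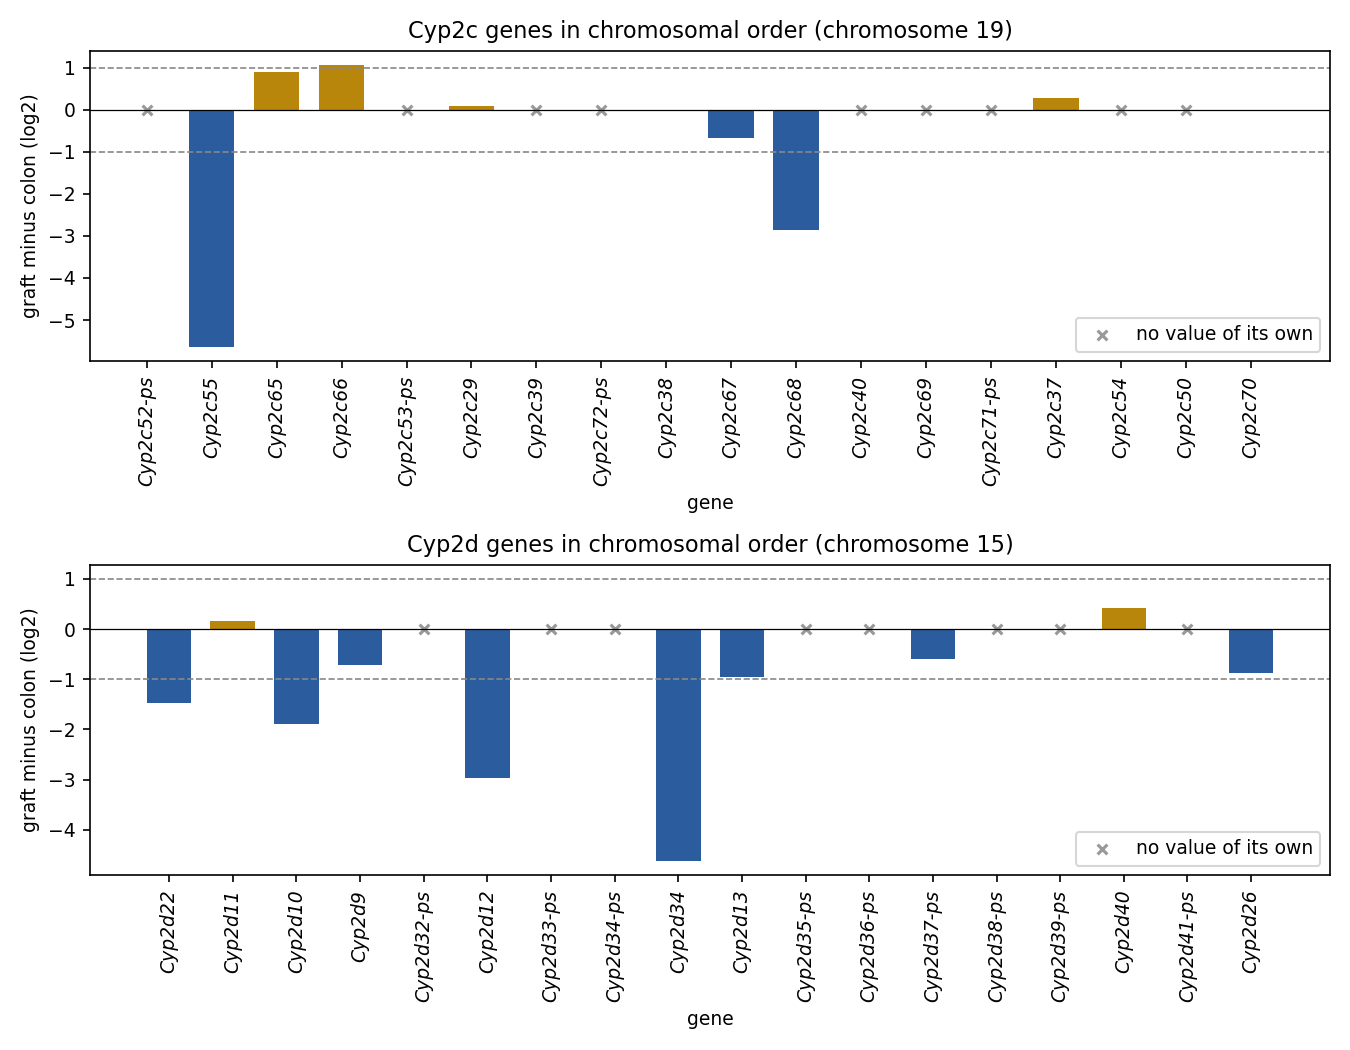
Difference between graft and colon (log2) of the Cyp2c genes of the run on chromosome 19 and of the Cyp2d genes on chromosome 15, as bars in chromosomal order with even spacing; crosses mark genes with no value of their own, dashed lines are at 2-fold, and a measured gene with no visible bar has a difference near 0. Cyp2c55 (-5.64) stands beside Cyp2c65 (0.90) and Cyp2c66 (1.07), and 8 of the 10 Cyp2d bars point down, where 7597 of all 17305 genes lie below 0.

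The other Cyp2 subfamilies contributed 1 lower gene. Cyp2f2, known for oxidising naphthalene in airway club cells, was at 4.62 in the graft against 5.79 in the colon, a 2.24-fold difference with the graft value in the background range. Cyp2s1, an epithelial enzyme that oxidises retinoids and eicosanoids, was at 6.30 in the graft against 6.81 in the colon. Cyp2j6, an arachidonic acid epoxygenase of the small intestine, had the largest difference of its subfamily, at 7.30 in the graft against 6.66 in the colon. Its difference of 0.64 was 1.56-fold and thus under the 2-fold measure. Cyp2u1, a fatty acid hydroxylase, was at 5.37 and 5.64, and Cyp2r1, a vitamin D hydroxylase, at 4.68 and 5.06. The phenobarbital-inducible gene Cyp2b10, a target of the receptor CAR, was at 4.80 and 4.89. The ethanol-oxidising gene Cyp2e1 was at 4.55 on both arrays, and over the 6 genes of Cyp2b, Cyp2e, Cyp2g and Cyp2t differences lay between -0.18 and 0. Cyp2j9, Cyp2j11 and Cyp2w1 had differences of -0.12, 0.10 and -0.15.

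Subfamily Cyp3a, the main drug-oxidising group of the human gut, differed little. Cyp3a13, known as the Cyp3a enzyme of the mouse intestine, was at 7.58 in the graft against 7.53 in the colon, a difference of 0.05 that was smaller than the SD between probe sets. The other 4 measured genes did not reach the median level. Cyp3a11, the main hepatic member and a target of the receptor PXR, was at 4.52 and 4.63, and Cyp3a25 had a difference of 0.41 at 5.10 against 4.68. Cyp3a44 and Cyp3a57 had differences of 0.03 and -0.03. The PXR gene Nr1i2 was at 6.30 in the graft against 6.90 in the colon, and the CAR gene Nr1i3 at 5.71 and 5.57.

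Family 4, whose enzymes hydroxylate the end of fatty acid and eicosanoid chains, again showed neighbours with opposite signs. Cyp4f13 was at 5.95 in the graft against 7.16 in the colon, a difference of -1.21. Cyp4f14, which oxidises leukotrienes and vitamin E and lies next to it on chromosome 17, was at 7.44 in the graft against 6.81 in the colon, a difference of 0.63. Of 9 measured Cyp4f genes, Cyp4f13 alone was 2-fold apart, and the other 8 had differences between -0.02 and 0.63. Cyp4f16 was at 6.98 and 6.90 and Cyp4f40 at 5.62 and 5.53, both nearly level between the samples. Cyp4f18, known from neutrophils, was at 4.69 and 4.63, and Cyp4f39, a skin lipid enzyme, at 4.52 on both arrays. Cyp4a10, a target of the receptor PPAR alpha, was at 4.40 and 4.62, and Cyp4b1 at 4.94 and 4.72, all near the low end.

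Among the P450 genes of sterols, bile acids, vitamins and retinoids, Cyp27a1 was 2-fold apart. This mitochondrial sterol hydroxylase acts on cholesterol and bile acid precursors, and its gene was at 5.20 in the graft against 6.45 in the colon, a 2.38-fold difference. Cyp39a1, an oxysterol hydroxylase, had a difference of -0.73 at 5.66 against 6.39. Cyp20a1, whose substrate is not known, was at 6.20 and 6.36. The bile acid genes Cyp7b1 and Cyp8b1, the vitamin D activating gene Cyp27b1, the brain cholesterol hydroxylase gene Cyp46a1 and the steroid genes Cyp11b1, Cyp11b2 and Cyp21a1 had differences between -0.12 and 0.15. These 7 genes did not reach the median level on either array. Cyp11b1, which makes glucocorticoids, was at 4.63 on both, so its expression in either epithelium was not detectable by this measure. The retinoic acid hydroxylase genes Cyp26a1, Cyp26b1 and Cyp26c1 had differences of -0.17, -0.01 and -0.03, all below the median level. Cyp7a1, Cyp11a1, Cyp24a1 and Cyp4v3 were among 22 textbook members set for naming and have no value here.

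Genes that work with P450 enzymes were taken from lists set by function. Of 11 redox partner genes, which carry electrons to P450 enzymes, 7 were measured and 0 differed by 2-fold, with a median of 0.07. The largest difference was that of cytochrome b5, Cyb5a, at 8.67 in the graft against 7.85 in the colon. The mitochondrial ferredoxin gene Fdx1, which serves enzymes such as that of Cyp27a1, was at 8.05 and 8.32. The gene of the main reductase, Por, was not analysed here. In the heme synthesis and breakdown list, 1 of 11 measured genes was at least 2-fold higher in the graft, 0 were lower by as much, and the median was -0.02. The higher gene was Alas1, the rate-limiting enzyme of heme synthesis, at 7.43 in the graft against 6.40 in the colon, a difference of 1.04. Hmox1, which degrades heme, was at 5.17 and 5.15. Across all 17305 genes, 1.93% passed 2-fold upward and 3.09% downward. In lists of 7 and 11 genes, counts of 0 and 1 cannot be told apart from those shares.

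Among receptors and regulators of P450 genes, 3 of 28 measured were lower in the graft by 2-fold or more, 0 were higher by as much, and the median was 0. The shares over all genes were 3.09% and 1.93%. The vitamin D receptor gene Vdr was at 7.71 in the graft against 8.84 in the colon, a 2.20-fold difference. Pparg, a fatty acid receptor abundant in colonic epithelium, was at 6.84 and 7.88. Its difference of -1.04 was -0.97 with quantile normalization and -0.99 with centring, inside 2-fold, which leaves 2 lower genes. The third was Dbp, a clock-controlled factor, at 5.91 and 7.26. Hnf4a was at 8.86 in the graft against 8.81 in the colon. Among 14 measured genes of other oxidative drug enzymes, 3 were at least 2-fold lower, 2 were higher, and the median was -0.28. Both monoamine oxidase genes were lower, with Maoa at 6.68 in the graft against 9.75 in the colon and Maob at 4.67 and 6.64. The 2 epoxide hydrolase genes past 2-fold went in opposite directions. Ephx3 and Ephx4, which did not reach the median level, had differences of -0.05 and -0.68. Ephx1, which opens epoxides of foreign compounds, was at 5.04 and 6.10, whereas Ephx2, which opens the fatty acid epoxides that Cyp2c and Cyp2j enzymes make, was at 7.12 in the graft against 5.87 in the colon. Xdh, xanthine dehydrogenase, was at 7.31 and 6.29.

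**Figure D4:**
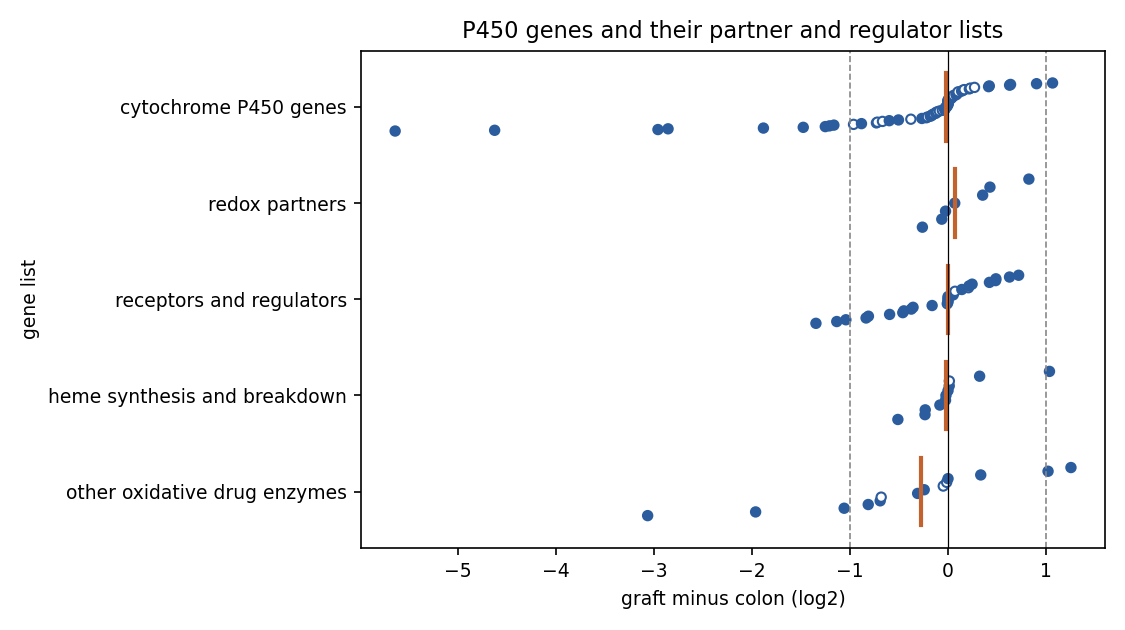
Difference between graft and colon (log2) of each measured gene, for the P450 genes and the lists of redox partners, receptors and regulators, heme genes and other oxidative enzymes; filled circles reach the median level, open circles do not, the vertical bar is the median of a list, and dashed lines are at 2-fold. The P450 genes extend furthest to the left, to -5.64, and 0 of 7 redox partners pass 2-fold, near the share over all genes.

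Markers of other cell types differed too. In the graft, 5 of 5 Paneth cell markers and 6 of 6 tuft cell markers were higher by 2-fold or more, with summed log2 levels of 50.8 against 23.9 and of 43.4 against 31.5. The colonic absorptive markers summed to 60.4 in the graft against 98.9 in the colon, and the small intestinal enterocyte markers to 98.0 and 54.8. Of 10 fibroblast and smooth muscle markers 1, Lum, was at least 2-fold lower, with sums of 59.1 and 63.3. Of 9 measured leukocyte markers 0 differed by 2-fold, and of 5 endothelial markers 1 was higher. Hepatocyte markers, set because many P450 genes are hepatic, included Alb at 4.58 and 4.55, in the background range on both arrays, and Fga at 4.76 and 4.79. Of the 5 measured, 2 were at least 2-fold lower, Ttr at 5.92 against 8.61 and Tat at 5.29 against 6.37. Cps1, which the small intestine also expresses, was at 10.64 in the graft with a difference of 4.65. The part of these cell types in the P450 differences was not tested, and fewer cells of a type and less RNA per cell cannot be told apart.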

How the data were processed

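Total RNA of 2 samples, 1 graft and 1 control colon, was profiled on single-channel arrays after amplification of 4.33 ng of RNA each, per the labels' protocols. The authors deposited log2 levels for 24074 probe sets. Its scale was read from the values (4.19 to 13.37 and 4.22 to 13.46, medians 5.44 and 5.43). Neither the software nor the background correction, normalization or centring is given in the sources used here, and no detection calls come with the values. Amplification of so little RNA may distort single levels. A single channel has no dye direction.

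Probe sets were named through the platform annotation, with 18904 having 1 symbol, 1330 several and 3840 none. The brightest single-symbol probe set stood for each gene. All 66 P450 genes were matched by Entrez identifier to RefSeq GRCm38.p6, and 0 symbols changed. That table served for names and gene order. Python 3.11.15, pandas 2.3.3 and NumPy 2.4.6 were used, and the counting was tested on simulated data.

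No test was made, as 1 array per group leaves no residual degree of freedom. Named were P450 genes at least 2-fold apart that reached the median level, the largest difference in each remaining subfamily, and textbook members, 29 genes in all. The choice of further named members followed their values. The members and lists were chosen with earlier results of these data known. Protein comparisons were not made here. Alternatives were another choice of probe set, normalization, centring, a floor on low values, other filters and other thresholds.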

Additional observations from a re-analysis of the deposited data

How the results depend on the processing

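The count of P450 genes at least 2-fold lower stayed at 9 with quantile normalization, centring, values raised to the 20th percentile, no filter or a filter at the 25th percentile, was 8 with a filter on the mean of both values (chosen after seeing the data), 6 with a filter at the 75th percentile, 12 at 1.5-fold and 4 at 4-fold. The count of higher genes, 1, was 0 with raised values, with the 75th percentile filter, with the filter on the mean and at 4-fold, and 4 at 1.5-fold. The median of P450 genes that reached the filter, -0.60, was -0.017 with no filter, -0.15 with the 25th percentile filter and -1.21 with the 75th percentile filter, since the filter decides which genes enter. Averaging probe sets could not move a P450 value, since each gene has 1. Under quantile normalization, centring and raised values, 0 of 30 recomputed differences of the 10 named genes past 2-fold changed sign, whereas 5 of 57 did among the other 19, all with a main difference within 0.17 of 0 (Cyp1b1, Cyp26a1, Cyp26b1, Cyp27b1 and Cyp3a11). All recomputed differences moved by less than the SD between probe sets. Shifts this small could not turn a difference past 2-fold, so the 0 of 30 was fixed in advance and shows no robustness. For Cyp26a1, Cyp27b1 and Cyp3a11 the sign turned only because both values were raised to floors that differ by 0.013. With 1 array per group no sample could be left out. No paired analysis was possible because each group has 1 sample. By the 20th percentile cut, background at low levels limits the size of at least 7 of the 10 differences past 2-fold. That cut was a choice. The graft values of Cyp2d22 (5.23) and Cyp27a1 (5.20) lay between it and the median level, so their sizes may be limited too.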
